A study of Mus musculus with 4 samples.

Results

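The genes described here encode MutS and MutL proteins and the exonuclease EXO1, which repair mismatched bases after DNA replication and process recombination intermediates in meiosis. The 8 members, Msh3, Msh4, Msh5, Msh6, Mlh3, Pms1, Pms2 and Exo1, were taken by gene symbol from a table of 55421 genes. Msh4, Msh5 and Mlh3 form the meiotic class (3 genes), and Msh3, Msh6, Pms1, Pms2 and Exo1 form the replication repair class (5 genes), although the proteins of the second class also act in meiotic cells. All 8 had reads in every library and passed the filter on low counts.

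Poly(A) RNA was sequenced from cultures of spermatogonia of CD1 mice, grown with bFGF and GDNF on irradiated mouse embryonic fibroblast (MEF) feeders, so that every library held RNA of both cell types. In the Veh group (2 libraries) the cells stayed in complete spermatogonial stem cell medium with vehicle. In the NRRA group (2 libraries) they received nutrient restriction medium, in which a balanced salt solution replaced most of the complete medium, together with retinoic acid (RA) for 2 days. By the study's recipe the salt solution also dilutes the bFGF and GDNF of the complete medium, although the labels give the same amounts for both groups. Nutrient restriction, RA and any dilution of growth factors came together, so their shares in a difference cannot be told apart. The study calls its sequencing replicates independent biological replicates, and the labels do not say whether they were separate cultures or animals, so the p-values measure the spread between these libraries.

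Mismatch repair starts when a dimer of MutS proteins binds a mispaired or looped-out base behind the replication fork. A dimer of MutL proteins then nicks the new strand, EXO1 removes a stretch of it, and the replication polymerase fills the gap. In meiotic prophase, MSH4 and MSH5 form a MutS dimer of a different kind, which does not repair mismatches but clamps onto recombination intermediates and protects those that will become crossovers. MLH3 belongs to the MutL nuclease that cuts such intermediates into crossovers at the pachytene stage, and mice without Msh4, Msh5 or Mlh3 are sterile.

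The sequences just before the starts of the genes are shown for the 3 meiotic members and for Msh6, the member with the highest level, because these genes are set against each other below. They were taken from the RefSeq promoter table (build GRCm38.p6), which gave 8 start sites for 7 of the 8 members, since Mlh3 has 2 starts. Each is written 5′ to 3′ on the strand of its gene, with every CpG pair in capitals. Only the longest run without an annotated exon is printed, which for Msh5 is 127 of the 250 bases before its start. The stretches lie at chr3:153904892-153905141 (minus strand) for Msh4, chr17:35046746-35046872 (minus) for Msh5, chr12:85270600-85270849 (minus) for Mlh3 and chr17:87974800-87975049 (plus) for Msh6. The Msh4 stretch is also inside a longer annotated form of the gene, outside its exons.
Msh4: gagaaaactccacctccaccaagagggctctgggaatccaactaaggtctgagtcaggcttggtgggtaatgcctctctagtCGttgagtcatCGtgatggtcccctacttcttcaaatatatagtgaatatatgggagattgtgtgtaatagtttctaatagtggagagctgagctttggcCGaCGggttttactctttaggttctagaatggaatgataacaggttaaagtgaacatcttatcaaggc
Msh5: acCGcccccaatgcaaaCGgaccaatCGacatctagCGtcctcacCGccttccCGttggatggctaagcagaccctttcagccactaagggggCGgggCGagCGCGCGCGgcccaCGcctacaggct
Mlh3: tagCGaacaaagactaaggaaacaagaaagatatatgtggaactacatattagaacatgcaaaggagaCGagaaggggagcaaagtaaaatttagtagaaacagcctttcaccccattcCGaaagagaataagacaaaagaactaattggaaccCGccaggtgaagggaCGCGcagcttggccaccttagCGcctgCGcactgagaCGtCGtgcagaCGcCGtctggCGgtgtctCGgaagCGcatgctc
Msh6: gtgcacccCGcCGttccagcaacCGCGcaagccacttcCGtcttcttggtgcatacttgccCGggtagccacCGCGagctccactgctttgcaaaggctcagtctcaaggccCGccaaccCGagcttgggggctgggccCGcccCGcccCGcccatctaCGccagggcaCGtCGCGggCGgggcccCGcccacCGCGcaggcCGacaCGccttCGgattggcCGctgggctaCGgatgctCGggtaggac

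The Msh4 stretch had 43.6% G and C and 4 CpG pairs in 250 bases, against medians of 52.4% and 6 pairs over 32851 RefSeq promoters, and its pair count stood at the 44.4 percentile of them. Msh6 had 70.8% G and C and 27 CpG pairs, and 92.4% of promoters had that many pairs or fewer. Between them, over the whole 250 bases, Msh5 held 22 pairs, Msh3 20, Pms1 18, Mlh3 15 at its first start and Pms2 14, so that the other 7 starts, of 6 genes, were above the median in CpG pairs and Msh4 was below it. In G and C content Mlh3 was below the median too, with 48.8% and 50% at its 2 starts.

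Both strands of these 250 bases were searched for 5 short words. TCCCGC and TTTGGCGC are words bound by E2F factors, CNCCTCAG has been linked to STRA8, CACGTG is the E-box and AGGTCA the core word of nuclear receptors, the retinoic acid receptors among them. Of the members set side by side above, Msh5 had 2 matches, and Msh4, Mlh3 and Msh6 had none. The Msh5 matches lay close together, 82 to 75 bases before the start for CNCCTCAG and 65 to 60 for TCCCGC, both read on the opposite strand, and are in capitals in this stretch of chr17:35046682-35046704 (minus strand), 5 bases of which lie in annotated exons.
Msh5 words: CTGAGGTGacggaaaagGCGGGA

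Elsewhere, Pms2 held CNCCTCAG and AGGTCA, Pms1 held TCCCGC and Msh3 held TTTGGCGC, each once, and no member held CACGTG. Over all promoters the share with a match was 16.9% for TCCCGC, 0.417% for TTTGGCGC, 6.42% for CNCCTCAG, 6.02% for CACGTG and 14% for AGGTCA. A match describes the letters only, and binding was not measured.

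The libraries held 28022265 to 31604769 counts, and the 8 members took 0.0557% to 0.0646% of them. Levels are given as CPM, counts scaled to a common library size after TMM correction, and 3 counts correspond to 0.0921 to 0.111 CPM. Differences were tested with edgeR's quasi-likelihood test over 20232 genes, with Benjamini-Hochberg adjustment over all of them and a threshold of 0.05, and a log2 fold change is NRRA over Veh. RA-responsive Stra8, which licenses meiotic entry, was read 261 and 300 times under Veh, against 60702 and 55775 times under NRRA. The contrast changed much of the transcriptome, with 56.4% of the tested genes called, 27.9% higher and 28.4% lower. With library sizes left unscaled, the split was 6962 higher and 4593 lower in place of 5654 and 5752.

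Against this background, 4 of the 8 members were called, which is no larger a share than among all genes. Msh4 and Mlh3 were higher in NRRA, Msh6 and Pms1 were lower, and Msh5, Msh3, Pms2 and Exo1 did not pass the threshold. The called members were also those whose libraries did not overlap between the groups, a pattern found in 76.7% of tested genes (38.1% higher in NRRA and 38.6% lower). The largest of the 8 differences in either direction, those of Msh4 and Msh6, stood at the 66.3 and 68.7 percentiles of absolute log2 fold change over all tested genes.

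**Figure D1:**
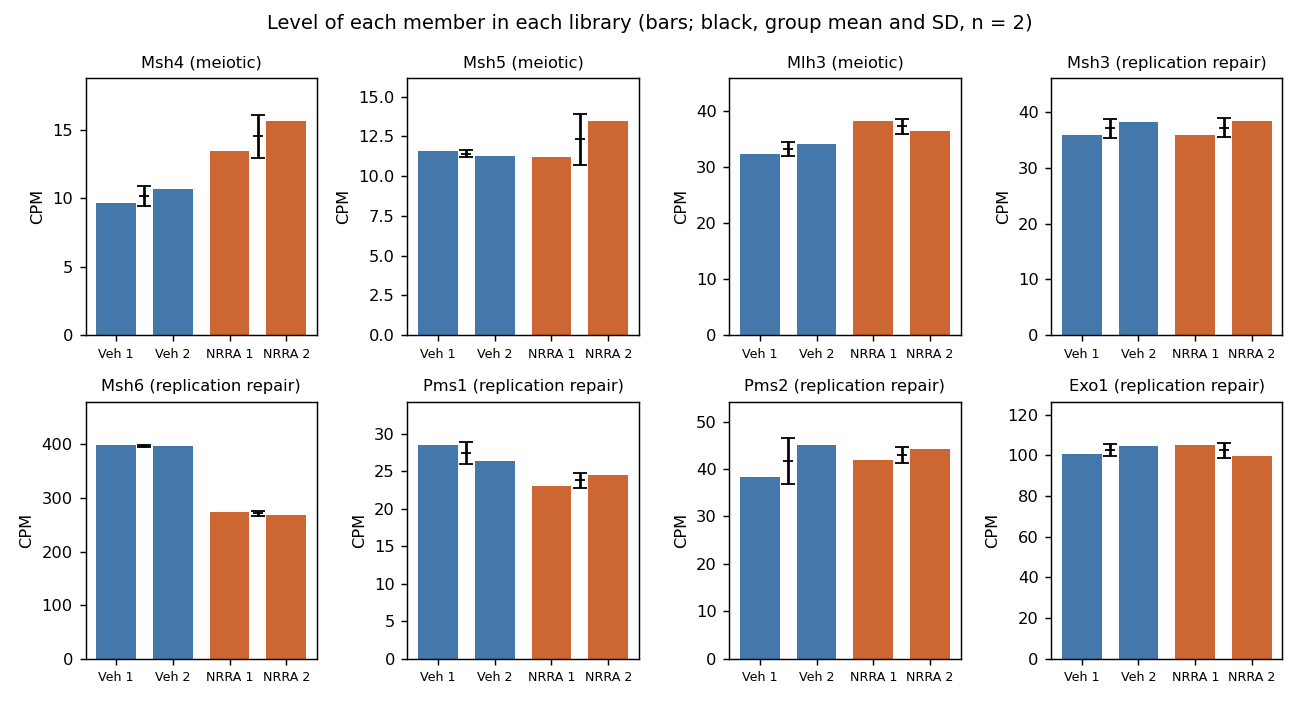
Level of each member in CPM (vertical axis, from 0, with its own scale in each panel) in the 2 Veh libraries (blue bars) and the 2 NRRA libraries (orange bars), with the mean and SD of each group in black. Msh4 and Mlh3 are higher in both NRRA libraries than in both Veh libraries, Msh6 and Pms1 are lower in both, and the libraries of the other 4 members overlap.

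Msh4 encodes a subunit of the meiotic MutS dimer and lies at chr3:153857149-153906138 on the minus strand (GRCm38, as are all gene positions here). Its level was 9.62 and 10.7 CPM under Veh, against 13.4 and 15.6 CPM under NRRA. Both NRRA libraries were above both Veh libraries. The mean rose from 10.1 ± 0.729 to 14.5 ± 1.55 CPM (SD, n = 2), or by 0.51 on the log2 scale (SE 0.11, 95% interval 0.29 to 0.73, edgeR adjusted p = 0.000176). The counts behind these levels were modest, 261 and 317 under Veh, against 437 and 470 under NRRA.

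Msh5 (chr17:35028605-35046745, minus strand) encodes the other subunit of that dimer. It was at 11.6 and 11.3 CPM in Veh and at 11.2 and 13.5 CPM in NRRA. One NRRA library was thus below both Veh libraries and the other above them, and the mean moved only from 11.4 ± 0.225 to 12.3 ± 1.61 CPM (SD, n = 2). The log2 fold change was 0.11 (SE 0.11, 95% interval -0.11 to 0.33, edgeR adjusted p = 0.42), so a rise as large as that of Mlh3 lies inside the interval and the Msh4 estimate lies outside it. Whether the changes of Msh4 and Msh5 differ was not tested.

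Mlh3 (chr12:85234520-85270599, minus strand) encodes the MutL nuclease subunit of crossover resolution. Its levels were 32.3 and 34.0 CPM in Veh and 38.1 and 36.3 CPM in NRRA. The groups did not overlap, yet the step between them was small, from 33.2 ± 1.26 to 37.2 ± 1.29 CPM (SD, n = 2). The log2 fold change was 0.17 (SE 0.061, 95% interval 0.040 to 0.29, edgeR adjusted p = 0.023). With DESeq2 the same log2 fold change of 0.17 had an adjusted p of 0.111, and without Veh replicate 1 or NRRA replicate 1 edgeR gave 0.133 and 0.184. A fit without a library leaves 1 in its group, which is assumed to vary like the pair of the other group, here and for the members below.

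Msh6 (chr17:87975062-87990892, plus strand) is the replication repair member with the largest change. It encodes the subunit of the MutS dimer that recognises base mismatches and short loops. It was at 399 and 396 CPM in Veh and at 275 and 268 CPM in NRRA, from counts of 8083 to 11797. The libraries of a group lay close together and the groups far apart, with means of 398 ± 1.95 and 272 ± 4.27 CPM (SD, n = 2). Msh6 fell by 31.8%, which is -0.55 as a log2 fold change (SE 0.026, 95% interval -0.61 to -0.50, edgeR adjusted p = 1.03e-15).

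Msh3 (chr13:92211872-92355003, minus strand), whose product gives the MutS dimer for larger loops, was level between the groups. It had 35.9 and 38.3 CPM in Veh and 36.0 and 38.4 CPM in NRRA, so that the difference within each group exceeded the difference between their means. The log2 fold change of 0.00046 had a 95% interval from -0.13 to 0.13 (SE 0.061, edgeR adjusted p = 0.996), and the Msh6 estimate lies outside this interval.

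Pms2 (chr5:143909964-143933968, plus strand) encodes the nuclease subunit of the MutL dimer of replication repair, and Pms1 (chr1:53189187-53297018, minus strand) a MutL protein with a lesser part in mammalian repair. Pms2 was at 38.2 and 45.1 CPM in Veh and at 41.8 and 44.1 CPM in NRRA, both NRRA values lying between the Veh values. Its log2 fold change was 0.041 (SE 0.065, 95% interval -0.092 to 0.18, edgeR adjusted p = 0.618). Without Veh replicate 2 it became 0.17, with an edgeR adjusted p of 0.043 that takes its spread from the NRRA pair, and without Veh replicate 1 it turned to -0.070.

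Pms1 had 28.5 and 26.3 CPM in Veh and 23.0 and 24.5 CPM in NRRA, with both NRRA libraries below both Veh libraries. The mean fell by 13.3%, from 27.4 ± 1.52 to 23.8 ± 1.05 CPM (SD, n = 2), and the log2 fold change was -0.21 (SE 0.072, 95% interval -0.35 to -0.057, edgeR adjusted p = 0.017). As for Mlh3, the call was lost with DESeq2 (adjusted p = 0.0976) and with edgeR without Veh replicate 1 (0.143) or NRRA replicate 1 (0.177). It was also lost with unscaled library sizes, at -0.12 with an edgeR adjusted p of 0.176.

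Exo1 (chr1:175880581-175913489, plus strand) encodes the exonuclease that removes the nicked strand and that also acts in crossover formation. Its levels were 100.4 and 104.6 CPM in Veh and 105.1 and 99.7 CPM in NRRA, so that the NRRA values enclosed the Veh values. The log2 fold change was -0.0014 (SE 0.040, 95% interval -0.083 to 0.080, edgeR adjusted p = 0.981).

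**Figure D2:**
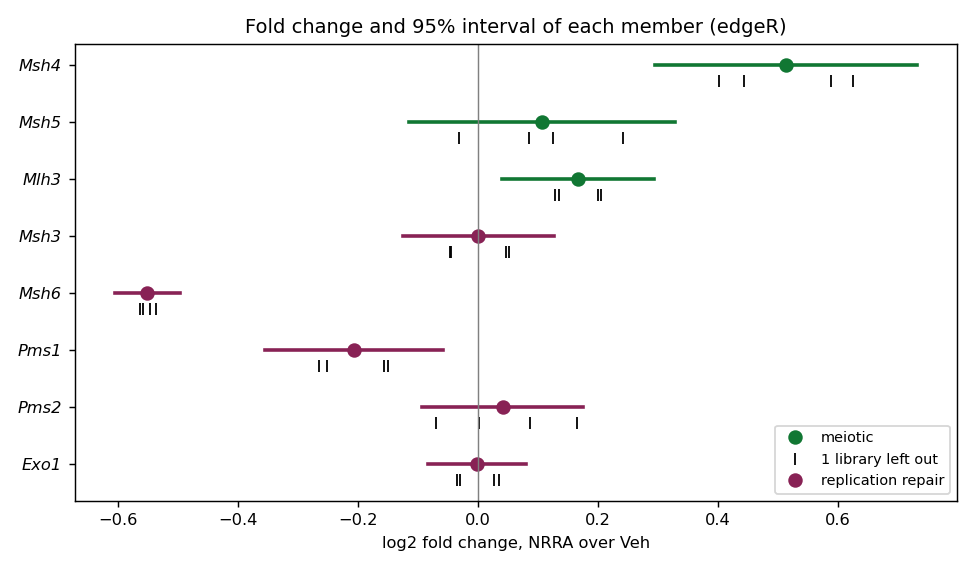
Log2 fold change of each member, NRRA over Veh (horizontal axis), as a point with its 95% interval from edgeR, for meiotic members (green) and replication repair members (purple). Black ticks give the value after leaving out each of the 4 libraries in turn, and the intervals of Msh4, Mlh3, Msh6 and Pms1 do not reach 0 while those of the other 4 members cross it.

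To compare levels between genes, CPM was divided by the length of the principal transcript in kilobases. On this scale, Msh6 stood at 93.6 ± 0.458 CPM per kb in Veh (SD, n = 2, as for the values that follow) and Exo1, the next, at 13.1 ± 0.374. Msh3 followed at 9.41 ± 0.424, Pms1 at 8.98 ± 0.498, Pms2 at 7.60 ± 0.882 and Mlh3 at 6.07 ± 0.231 CPM per kb. The meiotic MutS genes were at the bottom, Msh5 at 3.96 ± 0.078 and Msh4 at 3.05 ± 0.219 CPM per kb. Of the neighbours in this order, only Msh3 and Pms1 had overlapping libraries.

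In NRRA, Msh6 was at 63.9 ± 1.00 CPM per kb and still far above Exo1 at 13.1 ± 0.486. Neighbours with overlapping libraries were Pms2 (7.84 ± 0.304) beside Pms1 (7.78 ± 0.344), and Msh4 (4.37 ± 0.467) beside Msh5 (4.27 ± 0.558). For Msh4 and Msh5, which encode the subunits of a single dimer, the ratio per length of Msh4 to Msh5 was 0.721 and 0.821 under Veh, against 1.04 and 1.01 under NRRA. The ratio of Msh6 to Msh3 per kb, the alternative partners in MutS dimers of replication repair, was 10.3 and 9.61 in Veh and 7.08 and 6.49 in NRRA. For the MutL nuclease genes, Mlh3 over Pms2, it was 0.847 and 0.758 in Veh and 0.916 and 0.825 in NRRA, with overlapping groups. With 2 libraries against 2, an exact permutation test of such a ratio cannot go below p = 0.333, so the ratios are given as values. Dividing by all annotated exons merged instead left Msh6 and Exo1 at the top and Msh5 and Msh4 at the bottom in both groups, but reordered the members between them, for example with Msh3 at 3.30 and Mlh3 at 4.39 CPM per kb in Veh. The ratio of Msh6 to Msh3 was then 28.8 and 26.8 under Veh, against 19.8 and 18.1 under NRRA, and that of Msh4 to Msh5 was 0.666 and 0.758, against 0.962 and 0.930. The size of a ratio between genes thus depends on the lengths used. Its fold change between the groups cannot, because the length of a gene is the same in every library.

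Set against each other as classes, the meiotic members had a median log2 fold change of 0.17 (2 higher, 0 lower, 1 not called) and the replication repair members one of -0.0014 (0 higher, 2 lower, 3 not called). The median over all tested genes was 0.00029, with 27.9% of them higher and 28.4% lower. With unscaled library sizes the class medians were 0.26 and 0.088 and that of all genes 0.090, and with each library left out in turn the meiotic median ran from 0.13 to 0.24 and the replication repair median from -0.070 (without Veh replicate 1) to 0.027 (without Veh replicate 2). Per library, the mean log2 CPM of the meiotic class minus that of the replication repair class was -2.17 and -2.16 in Veh and -1.81 and -1.71 in NRRA. The gap thus narrowed by 0.40 on the log2 scale. It narrowed by 0.30 without Msh6, by 0.28 without Msh4 and by 0.17 without both, so that these 2 genes carried more of it than the other 6.

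Of the raw counts of all 8 members, Msh6 took 60.9% and 59.5% under Veh, against 50.5% and 49.7% under NRRA. Meiotic members took 8.15% (95% exact binomial interval 7.75 to 8.56) and 8.39% (8.01 to 8.79) in Veh and 11.5% (11.1 to 12.0) and 12.1% (11.6 to 12.6) in NRRA. These intervals cover counting error only. Since the shares add up to a fixed total, a fall of Msh6 raises the others, and with the Msh6 counts left out the meiotic share was 20.8% and 20.7% under Veh, against 23.4% and 24.0% under NRRA. The counts of all members together were 17787 and 19838 in Veh and 17689 and 16276 in NRRA.

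**Figure D3:**
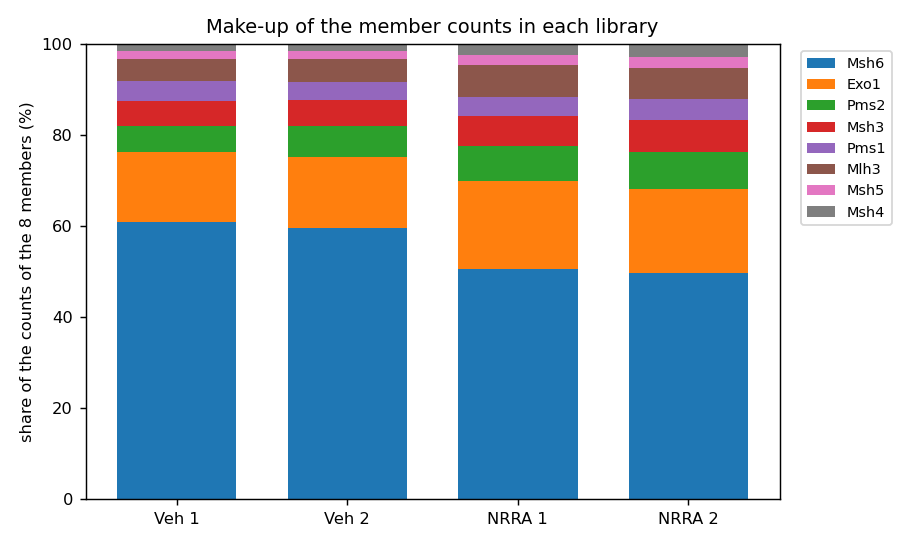
Share of the counts of the 8 members (vertical axis, percent) taken by each member in each of the 4 libraries. Msh6 takes 60.9% and 59.5% under Veh, against 50.5% and 49.7% under NRRA, and the 3 meiotic members at the top of the bars widen from 8.15% and 8.39% to 11.5% and 12.1%.

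Pms2 and Pms1 share a start region with a gene on the opposite strand. Pms2 starts 117 bases from Aimp2, which encodes a scaffold of the aminoacyl-tRNA synthetase complex. Counts of Aimp2 were 1785 and 2142 under Veh, against 1720 and 1637 under NRRA, and it fell with a log2 fold change of -0.36 (SE 0.050). The ratio of Pms2 to Aimp2 counts was 0.581 and 0.626 in Veh and 0.791 and 0.812 in NRRA. Pms1 starts 77 bases from Ormdl1, a regulator of sphingolipid synthesis, with counts of 339 and 414 under Veh, against 378 and 363 under NRRA (log2 fold change -0.16, edgeR adjusted p = 0.18). Their ratio overlapped between the groups, at 2.28 and 1.89 in Veh and 1.98 and 2.03 in NRRA. A further gene beside Pms1, Gm28778, had a count of 0 in all 4 libraries.

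For the 3 members with a change in the meiotic class or a large change in the other, the tested genes of similar level with the nearest profile over the 4 libraries were listed, by the Euclidean distance of log2 CPM centred on each gene's mean. For Msh4, among 4047 candidates, these were Gm16845 (0.0433), Fmc1 (0.0543) and Tango2 (0.0592). Those of Mlh3 were Tbpl1 (0.00955), Wdr41 (0.0104) and Gm26885 (0.0107) of 5072 candidates. The Msh6 profile was nearest to Ftsj3 (0.0253), Cavin1 (0.0256) and Rtn4 (0.0258) of 1257. These distances rest on 4 libraries in 2 groups. They depend on the size of each member's change and on the number of candidates, so they do not compare the 3 members.

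The genes that act beside the members were described by 4 lists. The counts of each list are to be read beside the shares of all tested genes, 27.9% higher and 28.4% lower. Crossover designation genes, which work with MSH4 and MSH5 to select crossover sites, had 9 tested genes of 10 listed, of which 7 were higher, 1 was lower and 1 was not called, with a median log2 fold change of 0.28 (0.37 with unscaled library sizes). The median is the value of Cntd1, which is uncertain because 70.2% of its exon bases overlap Becn1 on the opposite strand, and without it 6 of 8 were higher and the median was 0.23. Hfm1, a helicase gene of this pathway, had few counts, 62 and 60 under Veh, against 141 and 137 under NRRA, and rose from 2.15 ± 0.191 to 4.44 ± 0.157 CPM (SD, n = 2), or by 1.05 on the log2 scale (SE 0.19, edgeR adjusted p = 3.60e-05). Ccnb1ip1, whose product HEI10 marks crossover sites, rose by 0.41 on the log2 scale (edgeR adjusted p = 0.00144), and 12.4% of its exon bases overlap Rpph1 on the same strand. At the other end, Shoc1 rose by 0.13 and Prr19, which partners a crossover cyclin, was the lower gene at -0.31.

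Structure-selective nucleases and dissolution factors, which handle intermediates outside the MutL route, had 5 higher, 1 lower and 5 not called of 11, with a median of 0.089 (0.18 with unscaled library sizes). Slx1b, the catalytic subunit of the SLX1-SLX4 nuclease, was counted 334 and 323 times under Veh, against 1387 and 1197 under NRRA, with a log2 fold change of 1.83 (SE 0.078), although 22.2% of its longest transcript has near-identical sequence in other genes and 10.2% of its exon bases overlap Bola2 on the opposite strand. Rmi2, a member of the BLM dissolution complex, rose from 4.45 ± 0.540 to 10.5 ± 0.856 CPM (SD, n = 2), with a log2 fold change of 1.24. Of its longest transcript, 13.2% has near-identical sequence in other genes. Slx4 rose by 0.12. The lower gene was Mus81, a crossover nuclease of a separate route, at -0.28, with 22.2% near-identical sequence.

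The partners of mismatch excision and resynthesis (PCNA, its loader RFC, the RPA complex, polymerase delta and ligase 1) numbered 14, with 3 higher, 5 lower and 6 not called. Over all tested genes, 27.9% were higher and 28.4% lower. The median of the 14 partners was -0.049, and 0.040 with unscaled library sizes. With each library left out in turn it ran from -0.064 (without NRRA replicate 1) to -0.0075 (without Veh replicate 2). Pold3 and Rfc2 each had a log2 fold change of 0.29, and 26.4% of the Rfc2 transcript is near-identical to other genes. Rpa3 had -0.20 and Rpa2 -0.13. None of these 14 genes changed as much as Msh6.

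Among 19 S phase genes, 4 were higher, 10 lower and 5 not called, with a median of -0.087 that became 0.0027 with unscaled library sizes. Mcm7, a subunit of the replicative helicase, fell from 394 ± 8.41 to 283 ± 0.857 CPM (SD, n = 2), which is -0.48 on the log2 scale, but 81.2% of its longest transcript has near-identical sequence elsewhere. Tyms, the thymidylate synthase gene, had -0.32, with 26.7% near-identical sequence. The E-type cyclin genes went the other way, Ccne2 by 0.61 and Ccne1 by 0.33, and 20.4% of the Ccne2 transcript is shared with Ints8. The gene lists were chosen with earlier results of these data known and are descriptions.

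**Figure D4:**
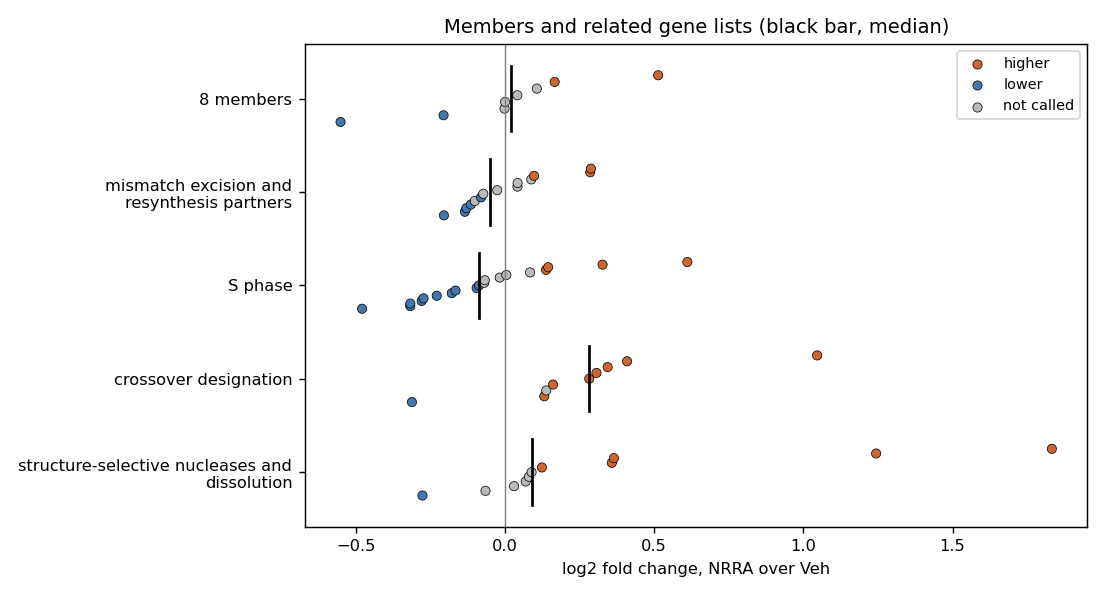
Log2 fold change, NRRA over Veh (horizontal axis), of each tested gene (points) among the 8 members and in the 4 lists of related genes, coloured by the edgeR call (orange higher, blue lower, grey not called), with the median of each list as a black bar. The members spread from -0.55 to 0.51 around a median of 0.021, while 7 of the 9 crossover designation genes are higher. Of all tested genes, 27.9% are higher.

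The cultures held more than germ cells, and fewer cells of a type and less RNA per cell cannot be told apart in these bulk libraries. As above, 27.9% of all tested genes were higher and 28.4% lower. Of 15 fibroblast genes of the feeders, 13 were lower, 1 was higher and 1 was not called, with a median log2 fold change of -0.20 (-0.11 with unscaled library sizes). Their summed level was 10266 and 10186 CPM under Veh, against 8116 and 7903 CPM under NRRA, and without Fn1, the fibronectin gene and the bulk of the sum, it was 4123 and 4099.6 CPM, against 3754 and 3551 CPM. The 6 germ cell genes, all present in every library, summed to 1630 and 1706 CPM in Veh and 1726 and 1735 CPM in NRRA, with 2 higher, 3 lower and 1 not called and a median log2 fold change of -0.035 (0.054 with unscaled library sizes). All 6 genes of undifferentiated spermatogonia were lower (median -2.63), and of 5 genes of differentiating spermatogonia 4 were higher and 1 lower (median 0.94). Of 6 Sertoli cell genes, 1 was higher, 1 lower and 2 not called, and Amh and Rhox5 had 3 counts or fewer in every library. The fall of the feeder genes has the same direction as that of Msh6 and Pms1, and its part in the members' changes was not tested.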

How the data were processed

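The authors deposited 1 table of unnormalized gene counts, all whole numbers, with unequal library totals. The submitters' processing notes name bcl2fastq, STAR 2.6.1c, featureCounts 1.6.4 and mm10. The study's methods give a stranded oligo-dT library of a Tecan kit and the labels a TruSeq kit. The annotation release, the strand setting and the treatment of reads that match several genes are not given in the sources used here, so reads of overlapping or near-identical genes may have been split or lost. Groups came from the sample titles, and the Veh columns, numbered 1 higher than the titles, were matched by the sample descriptions.

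Genes were filtered with filterByExpr and tested with edgeR 4.0.16 (R 4.3.3) as NRRA against Veh, with TMM scaling and robust quasi-likelihood estimation. Standard errors were derived from the F statistic, and log2 CPM used a prior count of 2. DESeq2 1.42.0, other scalings and filters, a replicate block and leaving out each library were alternatives. The fit was tested on simulated data with 200 changed genes, raised and lowered in equal numbers. These are far fewer than were called here, so the simulation does not test the scaling under so broad a change. Replicates differed by more than counting noise (chi-square per degree of freedom 2.45 in Veh and 1.99 in NRRA). Positions, exons and principal transcripts came from GENCODE M21 (GRCm38), which held 99.5% of the gene identifiers. Near-identical sequence was found with BLAST 2.17.0 (at least 95% identity over at least 100 bases).

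The members and lists were chosen with earlier results of these data known. Named genes were every member, the 2 largest and 2 smallest called log2 fold changes of each related list, genes within 1000 bases of a member's start on the opposite strand, the 3 nearest profiles to Msh4, Mlh3 and Msh6, and Stra8. A gene that this rule names is not reported here. The planned comparison of protein sequences was not made.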

Additional observations from a re-analysis of the deposited data

How the results depend on the processing

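Msh4 and Msh6 kept their direction and their call under all 12 alternatives, with log2 fold changes of 0.40 to 0.63 and -0.56 to -0.46. In 4 of these, which leave out a library, the lone library of a group is assumed to vary like the other group's pair, so their calls rest on the spread of that pair. DESeq2 called 1 member higher and 1 lower, and unscaled library sizes 1 lower, in place of 2 and 2. Leaving out each library in turn gave 1 to 3 members higher and 1 to 2 lower. The class difference of median log2 fold changes, 0.17, ran from 0.18 to 0.28 over these fits, and the narrowing of the class gap in mean log2 CPM, 0.40, became 0.30 without Msh6, 0.28 without Msh4 and 0.17 without both. These omissions, the lengths from merged exons, and the values without Msh6 counts, Cntd1 or Fn1 were chosen after seeing the data. The 4 members without a call changed sign in places. Msh5 ran from -0.031 to 0.24 with libraries left out, the low value without NRRA replicate 2. Msh3 was -0.00077 with a filter of 1 CPM, -0.045 without Veh replicate 1 and -0.047 to 0.052 over all libraries left out. Pms2 was -0.070 without Veh replicate 1. Exo1 was 0.018 with upper quartile scaling, 0.088 unscaled, 0.0060 with no filter, 0.027 without Veh replicate 2 and -0.035 to 0.035 over all libraries left out. The cause was not tested, except that unscaled library sizes move the median of all genes by 0.090. Same-numbered libraries did not deviate together (r = -0.011, 2 pairs), and with the replicate number as a block 2 members were higher and 2 lower, and 5772 and 5836 of all genes. With 2 libraries a group, a log2 change within about 0.1 of 0 is at the size of the median SE, 0.10.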

Other observations

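The marker genes named here were chosen after their values were seen. Among the Sertoli cell genes, Clu was at 8.20 ± 0.184 CPM under Veh and at 58.1 ± 1.17 CPM under NRRA (SD, n = 2) and rose by 2.82 on the log2 scale. Sox9 went the other way, with 28.2 ± 1.61 and 9.38 ± 0.070 CPM and a log2 fold change of -1.59. Wt1 was at 7.20 ± 0.896 and 5.92 ± 0.171 CPM and was not called. Among the germ cell genes, Tex14, an intercellular bridge gene, had a log2 fold change of 0.25 and Dazl, an RNA-binding protein gene, one of 0.16, while Tdrd1, Mael and Dnd1 were lower at -0.45, -0.15 and -0.094. Ddx4 was not called, at 270.3 ± 3.74 CPM in Veh and 275 ± 5.34 CPM in NRRA. Of the feeder genes, Col3a1 was the higher gene at 0.61, and Lum had the lowest value at -1.43.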
